A study of Mus musculus with 13 samples.

Results

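The clustered protocadherin genes were examined as the protein-coding genes of the mouse annotation (GENCODE M21, genome build GRCm38/mm10) whose symbol starts with Pcdha, Pcdhb or Pcdhg. This rule uses names only and gave 57 of 21951 protein-coding genes, with 14 in the α array, 22 in the β array and 21 in the γ array. They lie in that order along chr18:36930184-37841873, a stretch of 912 kb, and 456 other protein-coding genes lie on the same chromosome. The annotation gives the symbol Pcdha11 to 2 genes, and the one that starts at 37005203 (ENSMUSG00000007440) is called Pcdha10 here from its RefSeq start.

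Clustered protocadherins are cell-surface adhesion molecules. Each variable first exon has its own promoter. In the α and γ arrays that exon is spliced to constant exons shared by the whole array, whereas each β gene is a single coding exon. In neurons each cell uses a small, largely random set of these promoters, chosen with the help of CTCF, cohesin and distant enhancers, and the resulting set of surface proteins lets a neuron tell its own branches from those of other neurons. The last genes of the α and γ arrays (Pcdhac1, Pcdhac2, Pcdhgc3, Pcdhgc4 and Pcdhgc5), called C-type, are regulated differently from the rest.

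H3K27ac, acetylation of lysine 27 of histone H3, marks active promoters and enhancers, and it was mapped by ChIP–seq in 9 melanoma cell lines established from tumours of genetically modified mice on a C57BL/6J background. The mice of every group carried Tyr::NRAS Q61K, an activated oncogene driven by the tyrosinase promoter in pigment cells, 1 inactive Cdkn2a allele and both Cdh1 alleles flanked by loxP sites (Cdh1 F/F). ΔEcad lines also carried Tyr::CreA, a Cre recombinase driven by the same promoter that deletes Cdh1, the gene of the adhesion molecule E-cadherin, and Ecad lines did not. The groups were male Ecad (Ma_1007 and Ma_1181), female Ecad (Ma_1014 and Ma_1039), male ΔEcad (Ma_1062 and Ma_1456) and female ΔEcad (Ma_1057, Ma_1064 and Ma_1069), with no treatment of the cells. Each line gave 1 peak list and is 1 replicate of its group, and the age of the mice is not given in the labels. Peaks are positions where the mark passed the authors' significance threshold, so a missing peak is not proof that the mark was absent.

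The lists held between 20741 and 41663 peaks, and no list gives read counts, so the depth of the libraries is unknown. A promoter was called in a line when a peak lay within 1000 bp of an annotated transcription start site. The share of all coding promoters called was lower in the female ΔEcad lines, at 30.1% in Ma_1057, 33.3% in Ma_1064 and 25.3% in Ma_1069, than in the other 6 lines, which ranged from 38.4% to 48.6%. The lineage label was borne out by the markers, since 6 of 7 melanocyte promoters were called in all 9 lines and the seventh, Tyrp1, in 6. Of the 6 neuronal marker promoters, 5 were called in no line and Map2 in 2. No keratinocyte (4 genes) or endothelial (3 genes) marker promoter was called in any line, and of the fibroblast (4 genes) and leukocyte (3 genes) markers only Pdgfra (Ma_1007) and Cd68 (4 lines) were called. The control genes Actb and Gapdh were called in all 9 lines.

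Most clustered protocadherin promoters carried no H3K27ac peak in any line. Only 8 of the 57 (14%) were called in at least 1 line, against 52.9% of all coding promoters, and none was called in all 9 lines, against 21.1% of coding promoters. The 8 were Pcdhac2, Pcdhb5, Pcdhb11, Pcdhb16, Pcdhga1, Pcdhgc3, Pcdhgc4 and Pcdhgc5. In each of the other 49 genes the nearest peak was at least 4263 bp from a start in every line, so these genes were not near misses of the 1000 bp window. Widening the window to 2000 bp or narrowing it to 500 bp gave the same 8 genes. No peak that called 1 member reached the start of another, and the smallest gap between the starts of neighbouring members was 4131 bp.

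The lines marked few members, and Pcdhgc3 was the most frequent. Ma_1007 called 3 members (Pcdhb11, Pcdhga1 and Pcdhgc3), or 5.26% of them, against 48.6% of coding promoters in that line. Ma_1181 also called 3 (Pcdhb5, Pcdhb16 and Pcdhgc3), or 5.26% against 43.8%. The 2 male Ecad lines therefore called the same number of members but had only Pcdhgc3 in common. Ma_1014 called Pcdhgc3 and Pcdhgc4, or 3.51% against 41.1%, and Ma_1039 called Pcdhgc3 alone, or 1.75% against 40.0%. Among the male ΔEcad lines, Ma_1062 called only Pcdhgc3, or 1.75% against 38.4%, while Ma_1456 called 4 members (Pcdhac2, Pcdhb16, Pcdhgc3 and Pcdhgc5), or 7.02% against 39.5%, the highest number of any line. The 3 female ΔEcad lines called none of the 57.

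**Figure D1:**
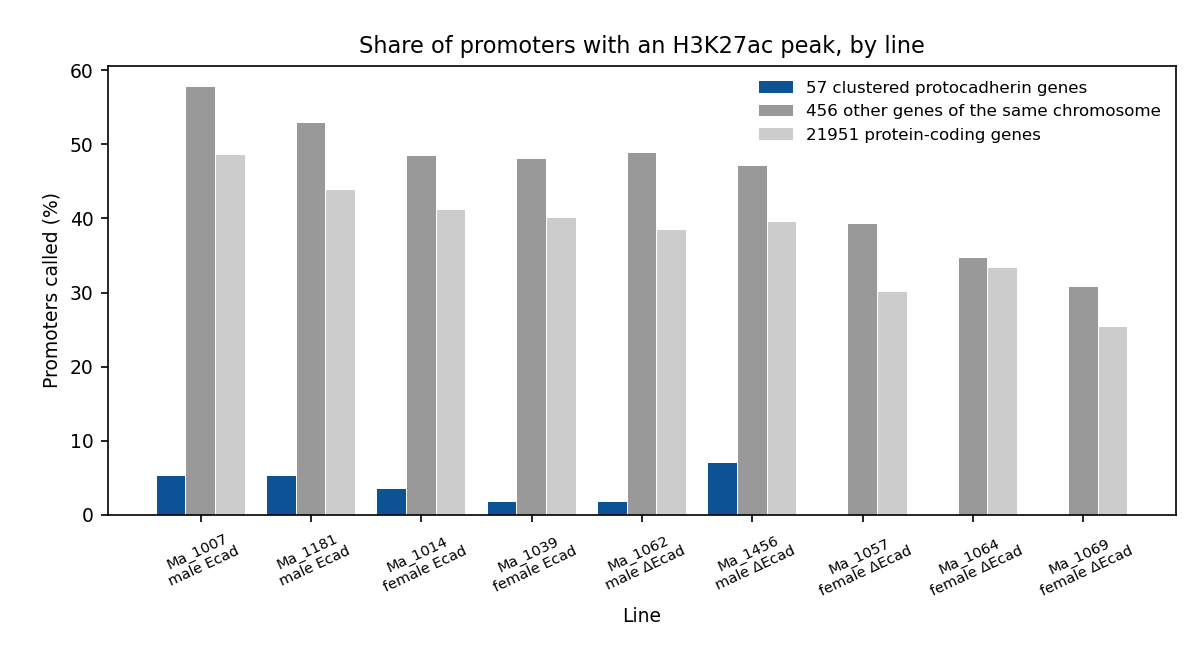
Share of promoters called in each line (y axis, percent) for the 57 clustered protocadherin genes, the 456 other coding genes of the same chromosome and all 21951 coding genes. The member bars reach at most 7.02% and are at 0 in the 3 female ΔEcad lines, and the other genes of the chromosome range from 30.7% to 57.7%.

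The other genes of the chromosome did not share this low level. Between 30.7% (Ma_1069) and 57.7% (Ma_1007) of those 456 promoters were called, above the share of all coding promoters in the same line in every line. By group, the number of members called was 2.25 ± 0.957 (SD, n = 4) in Ecad lines and 1.00 ± 1.73 (SD, n = 5) in ΔEcad lines, a difference smaller than the spread between ΔEcad lines, and the ranges overlapped. In male lines it was 2.75 ± 1.26 (SD, n = 4) and in female lines 0.600 ± 0.894 (SD, n = 5), with ranges that overlapped between 1 and 2. The mean was 1.5 in the female Ecad and 0 in the female ΔEcad lines. The share of all coding promoters called differed in the same direction. Its mean was 43.4% in Ecad and 33.3% in ΔEcad lines, and 42.6% in male and 34.0% in female lines.

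By promoters called, the α array had the lowest count, 1 of its 14 genes. None of the α variable promoters from Pcdha1 to Pcdhac1 was called in any line, and no list had a peak anywhere in the 340.0 kb at chr18:36802900-37143395 that holds those 13 starts. Pcdhac2, the C-type gene nearest the α constant exons, was called in Ma_1456 alone, by a peak of 686 bp with a deposited −log10 q of 6.65. That peak ranked low, above 2.77% of the peaks of its list, and its summit lay 542 bp downstream of the start. It was the only member lost when peaks under a −log10 q of 10 were left out.

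In the β array 3 of the 22 genes were called, all in male lines. Pcdhb5 was called in Ma_1181 by a peak of 637 bp with a −log10 q of 36.9. Pcdhb11 was called in Ma_1007 by a peak of 633 bp with a −log10 q of 16.8. Pcdhb16, the only β gene called in more than 1 line, had a peak of 612 bp with a −log10 q of 34.8 in Ma_1181 and one of 374 bp with a −log10 q of 12.2 in Ma_1456. These 4 peaks were alike in the place of the summit, while their widths ran from 374 to 637 bp. All had their summits 195 to 244 bp downstream of the start, within the single coding exon, and ranked in the lower part of their lists, above 19.7% (Pcdhb16, Ma_1456) to 46.3% (Pcdhb5) of peaks. Ma_1007 also had a pair of peaks of 311 and 332 bp between Pcdhb1 and Pcdhb2, at least 11245 bp from the start of Pcdhb2.

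Among the γA and γB genes only Pcdhga1, the first of the array, was called. It had 1 narrow peak, of 265 bp with a −log10 q of 13.6, in Ma_1007, where the annotation also places the start of Gm37118. No line had a peak in the 139.0 kb at chr18:37662078-37801089, which holds 17 γ starts from Pcdhga2 to Pcdhga12. The marked γ genes were otherwise the C-type genes at the end of the array. Pcdhgc4 was called in Ma_1014 alone, by a peak of 722 bp that ended 139 bp before the start, with a −log10 q of 10.9. Pcdhgc5 was called in Ma_1456 alone, by a peak of 452 bp that ended 211 bp before the start, with a −log10 q of 13.2. Of the 5 C-type members of the locus, 4 (80%) were called in at least 1 line, against 52.9% of coding promoters, the exception being Pcdhac1. Pcdhac2, Pcdhgc4 and Pcdhgc5 were each called in 1 line only. Line by line, the share of C-type members called was above that of coding promoters in Ma_1456 alone (60% against 39.5%). It was 40% against 41.1% in Ma_1014, 20% in the other lines with a called member, and 0% in the female ΔEcad lines. With lists of equal length only Pcdhgc3 of the 5 was called.

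**Figure D2:**
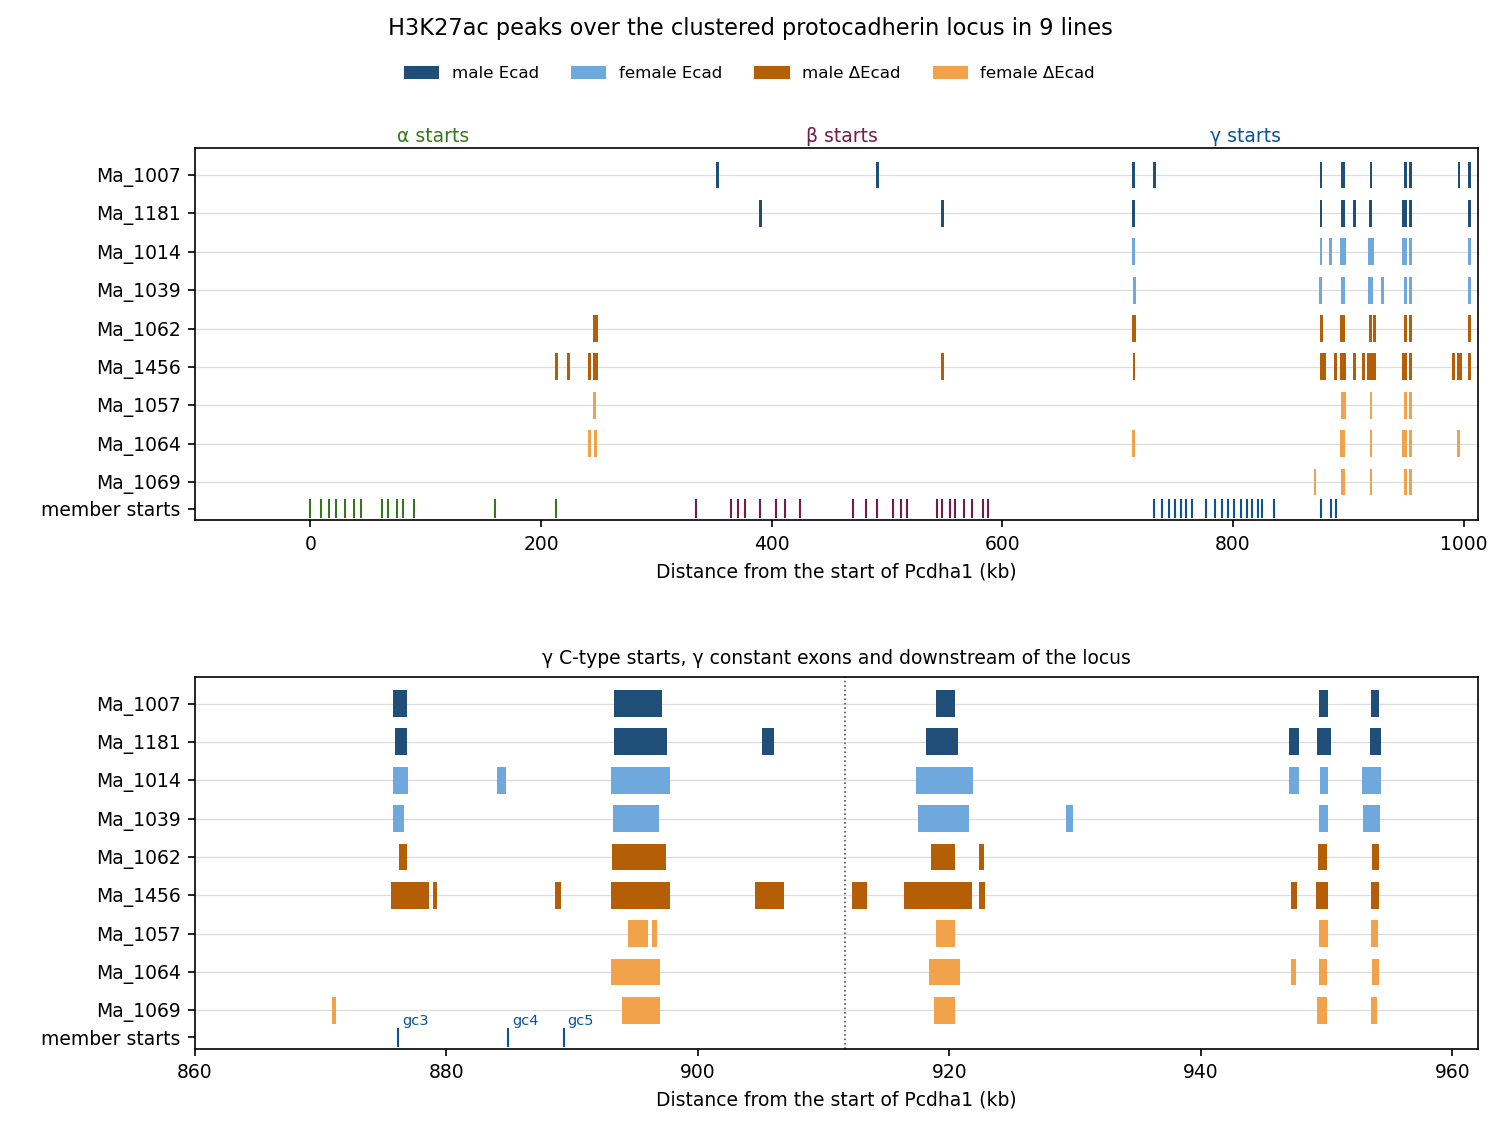
H3K27ac peaks of each line (rows, coloured by group) along the locus, with the x axis in kb from the start of Pcdha1 and member starts as ticks at the bottom. The upper panel shows the whole locus, with narrow peaks drawn wider than they are; the lower panel is to scale, and its dotted line is the end of the γ array. Peaks are sparse over the α, β and γ variable promoters and recur in all 9 lines over the first γ constant exon and at 3 places downstream.

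Pcdhgc3 was the recurrent isoform promoter. It encodes a C-type γ protocadherin and lies on the plus strand at chr18:37806364-37841873. It was called in all 4 Ecad lines and both male ΔEcad lines. In Ma_1007 the peak was 1139 bp wide with a deposited fold enrichment of 9.07 and a −log10 q of 69.1, and in Ma_1181 it was 958 bp wide with a fold of 10.8 and a −log10 q of 55.4. In Ma_1014 the width was 1239 bp, the fold 4.95 and the −log10 q 26.6, and in Ma_1039 they were 847 bp, 4.34 and 17.5. The folds of different lists are given side by side only, since the depth behind them is unknown. In Ma_1062 the peak was 595 bp wide with a fold of 7.19 and a −log10 q of 30.1, and in Ma_1456 it was 3060 bp wide with a fold of 7.06 and a −log10 q of 32.5, the widest of the 6. The summits of all 6 peaks fell within 69 bp of each other, 183 to 252 bp downstream of the first start of the gene. Ranked within its own list, the peak stood above 30.5% (Ma_1039) to 63.7% (Ma_1007) of peaks. The antisense gene BC037039 starts within 1000 bp of the merged region, chr18:37805741-37808800, and a peak cannot be assigned to either strand.

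No female ΔEcad line had a peak at the start of Pcdhgc3. The nearest came in Ma_1069, a peak of 324 bp that lay 4951 bp before it. Across all coding promoters, a two-sided Fisher's exact test of the 3 female ΔEcad lines against the other 6 lines, a contrast chosen after the values were seen, gave an unadjusted p of 0.0119 for Pcdhgc3, the smallest this design allows, and a Benjamini-Hochberg adjusted p of 0.487. This pattern of all 6 against none of 3 held for 2.43% of coding promoters (533 genes) and for 1 of the 57 members (1.75%). The 49 members called in no line could not show it, so a count of 1 says little of the members as a group. Of the 10 nearest flanking genes, 0 was called in any female ΔEcad line and 4 to 8 in each other line. For all coding promoters the share in the female ΔEcad lines was 25.3% to 33.3%. Among these 10 genes only Diaph1, Hdac3 and Rell2 had the pattern of Pcdhgc3, and Fchsd1 and Arap3 were called in no line. Each of the 5 upstream genes was called in at most 1 ΔEcad line, and Zmat2 in all 4 Ecad lines and no ΔEcad line. The part of the lower promoter calls of the female ΔEcad lists in the absence of Pcdhgc3 was not tested. With every list reduced to the length of the shortest by −log10 q, Pcdhgc3 stayed called in the same 6 lines. Shortening a list can only remove calls, so it could not have added one in a female ΔEcad line.

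**Figure D3:**
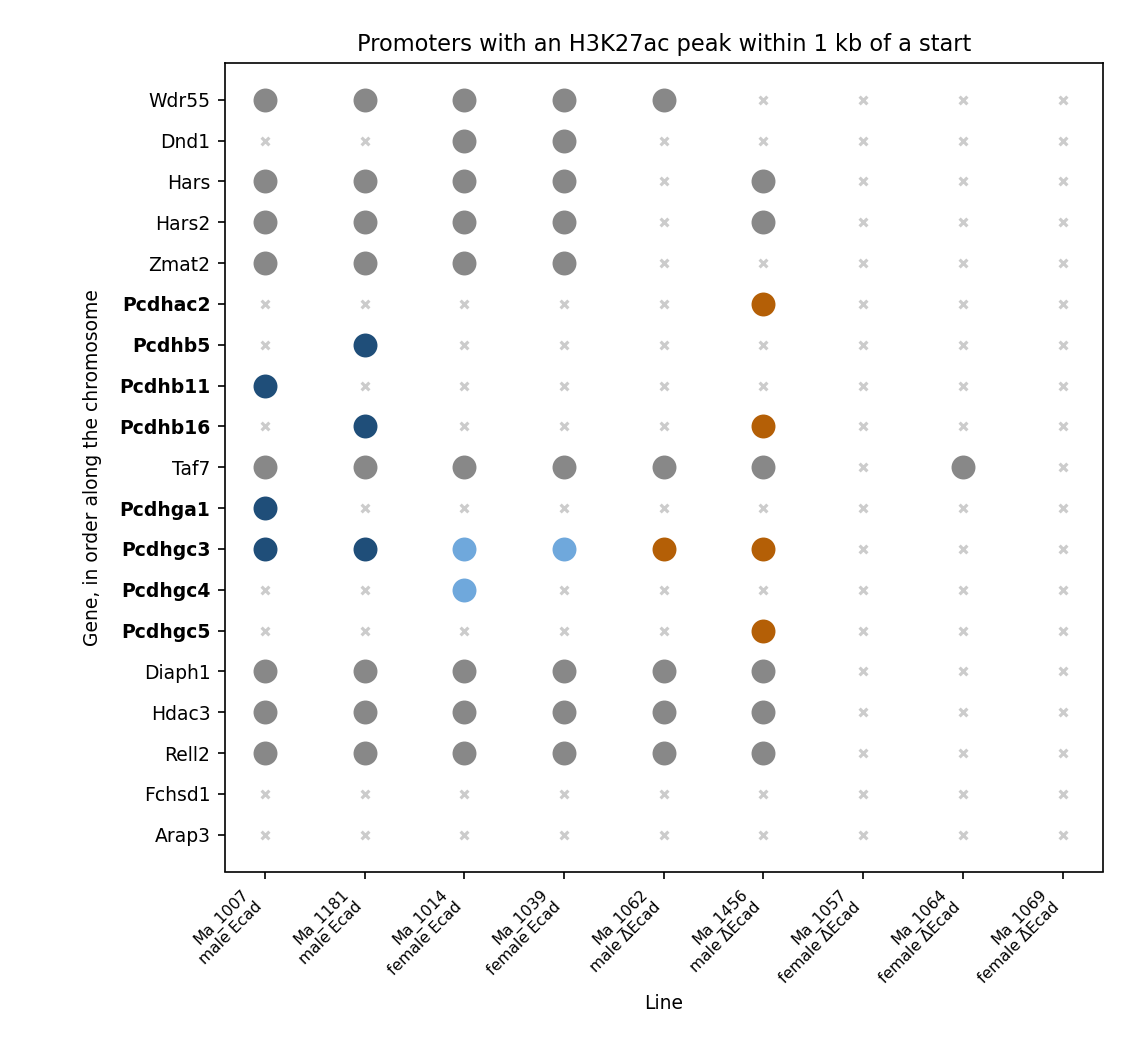
Promoters called (filled circles) or not called (crosses) in each line for the 8 members called in any line (bold, coloured by group), Taf7, which lies between the β and γ arrays, and the 5 nearest coding genes on each side (grey). Pcdhgc3 is filled in 6 lines, and the female ΔEcad columns have 1 filled circle, Taf7 in Ma_1064.

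Between genotypes and between sexes no member passed a test. By Fisher's exact test over all coding promoters, ΔEcad against Ecad gave 0 promoters at an adjusted p under 0.05 and 661 (3.01%) at an unadjusted p under 0.05, none of them a member. Female against male gave 0 and 357 (1.63%), again with no member. For Pcdhgc3, called in 4 of 4 Ecad and 2 of 5 ΔEcad lines, the exact p was 0.167 and the adjusted p 1.0. Its split by sex was of the same size, 4 of 4 male and 2 of 5 female lines. With 5 lines against 4 the smallest possible p is 0.00794, which no promoter could carry past the adjustment in these data.

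In each of the 6 lines with a called member, the peak inside the γ constant part had a higher −log10 q than the peak at any isoform promoter. A region downstream of the array was higher still in Ma_1014, Ma_1039 and Ma_1456. Peaks of the 9 lists were merged where they overlapped or touched, which gave 59668 regions in the genome and 29 between 100 kb before the first and 100 kb after the last member. Of the 29, 4 were called in all 9 lines (13.8%), near the 13.7% of all regions, and 15 in a single line (51.7%), against 34.0% of all regions. Most of the single-line regions came from Ma_1456, which had the most peaks in the locus (21), and Ma_1007, which had the longest list. The region at chr18:37823245-37827983 was called in all 9. It covers the first γ constant exon (chr18:37825021-37825079), which follows the last variable exon, that of Pcdhgc5, and it holds the starts of Gm38182, a non-coding gene whose transcripts use the γ constant exons.

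Its peak stood in the upper part of every list. The −log10 q was 520 in Ma_1007 and 801 in Ma_1181, 235 in Ma_1014 and 154 in Ma_1039, 180 in Ma_1062 and 173 in Ma_1456, and 91.1 in Ma_1057, 164 in Ma_1064 and 88.4 in Ma_1069. The widths were 3885 and 4241 bp in male Ecad, 4739 and 3662 bp in female Ecad, 4278 and 4683 bp in male ΔEcad and 1619, 3919 and 3061 bp in female ΔEcad lines. The −log10 q also rises with depth and is not comparable between lists of unknown depth. Within its own list the peak stood above 88.7% (Ma_1057) to 98.3% (Ma_1181) of peaks. The summits of 8 lines fell within 111 bp of each other, and that of Ma_1456 lay farther downstream, which widened the spread to 534 bp.

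Further regions shared by all lines lay downstream of the array, within Diaph1, which encodes a formin that assembles actin. The nearest, chr18:37846548-37852039, began 4675 bp beyond the last γ base and overlaps an exon of Diaph1. Its widths varied most between lines, at 1495 and 2539 bp in male Ecad, 4526 and 4075 bp in female Ecad, 1840 and 5461 bp in male ΔEcad and 1534, 2485 and 1652 bp in female ΔEcad lines. Its percentile within the list ran from 42.1 in Ma_1007 to 97.3 in Ma_1456. All 9 summits nevertheless lay within 135 bp. The other shared regions, at chr18:37879349-37880521 and chr18:37883003-37884488, are intronic in Diaph1, were 490 to 1486 bp wide, and stood above 53.8% to 82.9% of the peaks of their lists. The annotation used names no enhancers of the locus, so these regions are described by position alone.

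**Figure D4:**
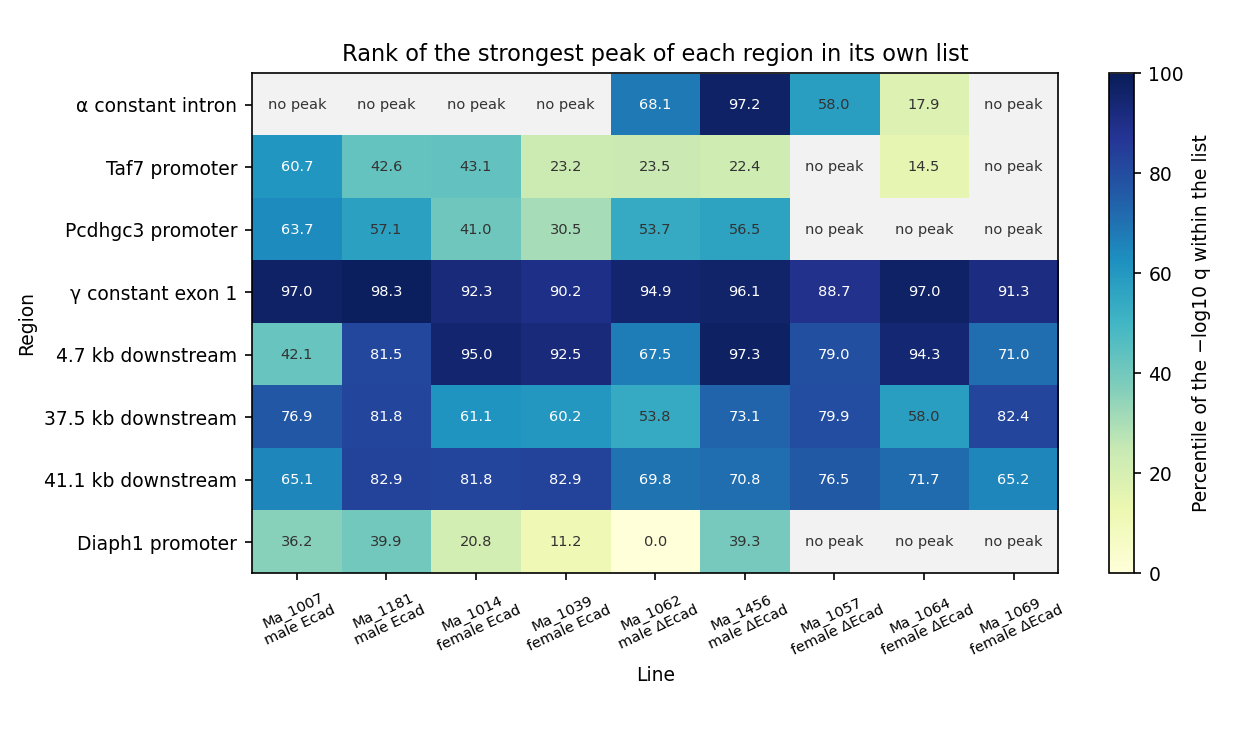
Percentile of the strongest peak of each region within the −log10 q values of its own list (colour and number; grey where the list has no peak) for 8 regions (rows) in 9 lines (columns). The γ constant exon 1 row stays at or above 88.7 in every line, the α constant intron row is empty in the 4 Ecad lines and Ma_1069, and the Pcdhgc3 row is empty in the female ΔEcad lines.

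Within the α array, peaks were found in ΔEcad lines and in no Ecad line. The region at chr18:37174955-37179744 lies in the intron between the second α constant exon (chr18:37159265-37159353) and the third (chr18:37184946-37187657), and it holds the start of Gm10544, an antisense transcript. It was called in both male ΔEcad lines and in 2 of 3 female ΔEcad lines. Peaks covered 2034 bp in Ma_1062, 4790 bp in Ma_1456, 1154 bp in Ma_1057 and 2411 bp in Ma_1064, while Ma_1069 and the 4 Ecad lines had none. The highest −log10 q there was 47.4 in Ma_1062, 199 in Ma_1456, 27.7 in Ma_1057 and 10.5 in Ma_1064, which placed the peak above 68.1%, 97.2%, 58.0% and 17.9% of the peaks of those lists. The region was thus among the strong peaks of Ma_1456 and a weak one in Ma_1064.

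Called in 4 of 5 ΔEcad and 0 of 4 Ecad lines, this intronic region had a Fisher's exact p of 0.0476 before adjustment and of 1.0 after adjustment over all regions. An unadjusted p under 0.05 with more calls in ΔEcad lines was reached by 0.255% of all regions (152 of 59668) and by 1 of the 29 regions of the locus (3.45%). Leaving out Ma_1069 gave 4 of 4 against 0 of 4 and p = 0.0286 by the same exact test. Leaving out any other line gave an exact p of 0.143, and lists of equal length gave 3 of 5 against 0 of 4 with an exact p of 0.167, so the call at p under 0.05 rests on few lines. No region of the locus was called in every ΔEcad line and no Ecad line, a pattern held by 2 regions of the genome (0.00335%). Regions called in the other 6 lines and in no female ΔEcad line were 2 in the locus (6.90%), the Pcdhgc3 promoter and the start of Diaph1, against 1.34% of all regions. That count was 1 with lists of equal length and with peaks of at least 500 bp, and 3 without Ma_1064. At the start of Diaph1 the Ma_1062 peak had a −log10 q of 5.08, among the lowest of its list. A limit of 10 on the −log10 q removes that call.

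A second α region, at chr18:37171418-37173648 and in the same intron, was called in Ma_1456 with a peak of 2231 bp and in Ma_1064 with one of 350 bp. Ma_1456 alone had a further region of 1984 bp at chr18:37153404-37155387, downstream of the first exon of Pcdhac2. The Ma_1456 list therefore held 9.69 kb of peaks in the α array. The others held 2.76 kb in Ma_1064, 2.03 kb in Ma_1062, 1.15 kb in Ma_1057 and 0 kb in Ma_1069 and the 4 Ecad lines.

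Peaks covered between 5.99 kb (Ma_1057) and 35.4 kb (Ma_1456) of the 1110 kb locus with its flanks. The mean was 13.2 ± 1.92 kb (SD, n = 4) in Ecad and 14.3 ± 12.1 kb (SD, n = 5) in ΔEcad lines, a difference far smaller than the spread between ΔEcad lines, and the ΔEcad minus Ecad difference in means, 1.06 kb, became -4.21 kb without Ma_1456. By sex the mean was 18.1 ± 11.6 kb (SD, n = 4) in male and 10.4 ± 4.12 kb (SD, n = 5) in female lines, with overlapping ranges, and the female minus male difference was -7.69 kb with Ma_1456 and -1.93 kb without it. The constant part of the γ array, only 19.7 kb long, held 2.03 to 7.01 kb of this in every line. In contrast, the β array held 0 kb in 6 lines and at most 1.28 kb (Ma_1007), and the γ variable exons held 0 kb in Ma_1057 and Ma_1064 and up to 3.84 kb in Ma_1456. No line had a peak in the 100 kb before Pcdha1 or in the 77.3 kb between the α and β arrays.

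**Figure D5:**
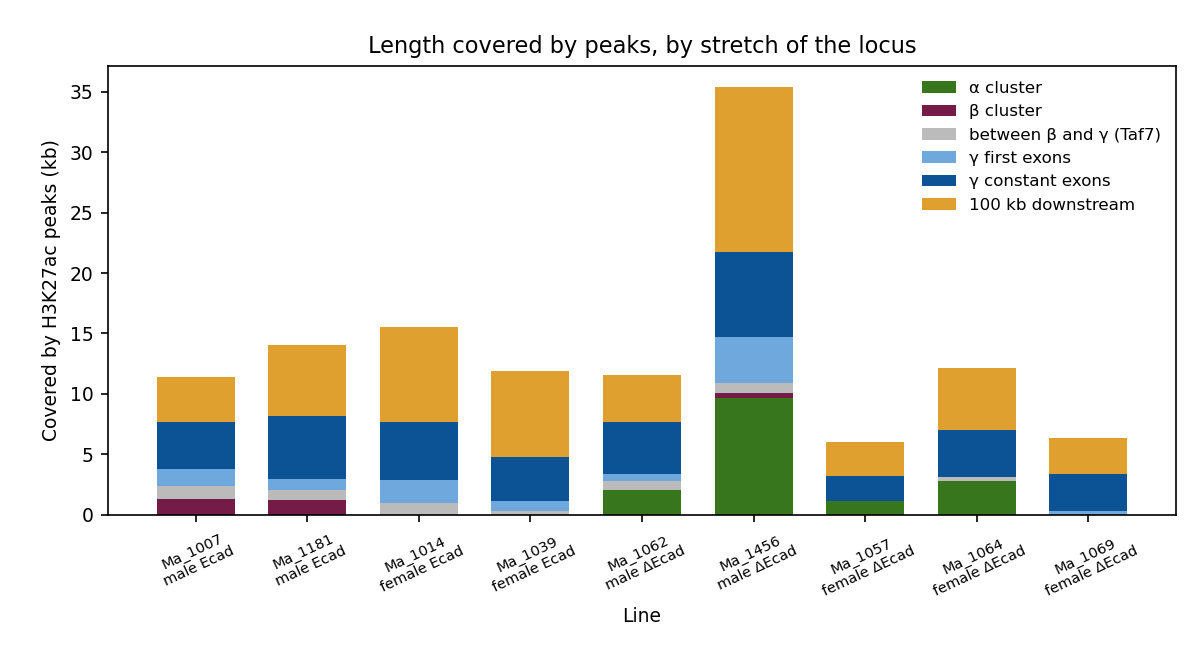
Length covered by H3K27ac peaks (y axis, kb) in each line, stacked by stretch of the locus. Ma_1456 reaches 35.4 kb and has the most in the α array (9.69 kb), the stretch that holds the γ constant exons contributes in every line, and β peaks appear only in Ma_1007, Ma_1181 and Ma_1456.

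Taf7, a gene for a general transcription factor subunit that lies between the β and γ arrays, was marked more widely than any member. Its promoter was called in 7 lines, all but Ma_1057 and Ma_1069. Slc25a2, a mitochondrial carrier gene between the same arrays, was called in none. Of the other 12 protocadherin genes, which lie outside the arrays, 6 were called in at least 1 line: Pcdh7 in 7 lines, Pcdh18 in 5, Pcdh9 and Pcdh17 in 4 each, Pcdh11x in the 2 female Ecad lines and Pcdh19 in Ma_1007. In female ΔEcad lines the only call among them was Pcdh7 in Ma_1064.

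Of 20 genes known to regulate chromatin or promoter choice at this or similar loci, 13 (65%) were called in all 9 lines. The share over all coding promoters was 21.1%. Those 13 included Ctcf, whose product binds protocadherin promoters and enhancers. Also among them were Smc3, Smc1a, Stag1, Stag2, Nipbl and Wapl, which encode cohesin or its loading and release factors. The others of the 13 were Trim28, Atf7ip, Ehmt2, Rest, Tet3 and Kdm5c. Rad21, another cohesin subunit, was called in 7 lines and Smchd1, a repressor of the protocadherin arrays, in 8. The promoters of the DNA methyltransferases Dnmt3a and Dnmt3b were called in 2 lines and 1 line, that of the histone methyltransferase Setdb1 in 2, that of the DNA demethylase Tet1 in 3 and that of Wiz in 1. Most of these 20 promoters were thus marked in all 9 lines, and most members in none.

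The promoters of the members differed in composition from coding promoters at large and from one another. Over the stretch from 250 bases before to 50 after the start, the median G+C content was 39.7% in the 57 members and 55% over all coding promoters. The ratio of observed to expected CpG was alike, with a median of 0.521 in members and 0.525 over coding promoters, and the median was 0.797 in coding promoters called in all 9 lines. The letters CGCT, the core of an element that protocadherin promoters share, were found on either strand in 55 of 57 members (96.5%) and in 67.1% of coding promoters. The letters AGGNGGC, part of the CTCF consensus, were found in 5 members (8.77%) and 31.8% of coding promoters. These motifs share no fixed overlap, and a match is a match of letters only.

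Pcdhgc3, the member called in most lines, had the highest G+C content of the 57, at 62%, and the most CpG sites, 22, where the median member had 6. Pcdhac1 followed with 60.7% and 17 sites and was called in no line. The 8 members called in any line had a median G+C content of 46.2% and the 49 others 39.7%, with overlapping ranges of 37.7% to 62% and 30.7% to 60.7%. The median ratio of observed to expected CpG went the other way, at 0.493 in the 8 and 0.521 in the 49. Their median numbers of CpG sites were 7 and 6.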

How the data were processed

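H3K27ac was mapped in 9 mouse melanoma lines, and 4 input libraries were not analysed here. According to the methods and labels, the authors aligned reads to GRCm38 with Bowtie2, and the submitters' processing notes name Bowtie2 2.4.5, MACS2 2.2.7.1 and deepTools 3.5.1.0.0. The deposited lists give, for each peak, a score, a fold enrichment (a linear ratio over background), a −log10 p-value, a −log10 q-value and a summit offset. Every deposited −log10 q was above 5. These values describe a peak within its list and were used to rank or filter only. Depth and precipitation efficiency change how many peaks pass the threshold, and the depth is unknown. Pairs of lists shared at most 2 identical peaks.

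Starts of all transcripts of 21951 coding genes (GENCODE M21) were used, with a window of 1000 bp. Peaks were merged across lists, with an overlap of 1 bp calling a region. Calls were compared by two-sided Fisher's exact tests (scipy 1.17.1) with Benjamini-Hochberg adjustment over all coding genes or all regions, after a check on simulated data. With 1 list per line, the lines are the units of the test, and each p-value depends only on how the calls split between the groups of lines. The members and gene lists were chosen with earlier results of these data known, and the contrast of female ΔEcad with the other lines was added after the values were seen. Named genes were all members, coding genes within the locus, the 5 nearest on each side, other protocadherins, regulators and cell type markers, of which 1 marker list is not reported here. Alternatives were windows of 500 and 2000 bp, the most upstream start only, lists of equal length, a −log10 q of at least 10, peaks of at least 500 bp and leaving out each line.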

Additional observations from a re-analysis of the deposited data

Results flagged for a closer look

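Ma_1456 stood apart from the lines it was grouped with. Among the 5 ΔEcad lines it had the most members called, 4, the longest covered length of the locus, 35.4 kb, and of the stretch from the first to the last member, 21.8 kb, each separated from the other lines by more than Dixon's 95% limit. Among the 4 male lines its 21 locus peaks, its 35.4 kb of the locus and its 21.8 kb of the gene stretch were separated in the same way. Among the 4 Ecad lines, Ma_1039 was set apart at the low end, with 4.78 kb of peaks over the gene stretch. Chance flags about 1 in 20 groups, and these measures share peaks, so the flags of Ma_1456 are not independent of each other. Ma_1456 had the longest list of the 5 ΔEcad lines, with 30340 peaks against 20741 (Ma_1069) to 29263 (Ma_1064) in the others. Among the 4 male lines Ma_1007 had a longer list, of 41663 peaks. The part of list length in these flags was not tested.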

How the results depend on the processing

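With every list cut to the length of the shortest, 3 members (Pcdhb5, Pcdhb16 and Pcdhgc3) in place of 8 were called in at least 1 line, and 83 promoters and 131 regions, in place of 135 and 331, were called in all lines of one genotype and none of the other. In the main setting all 135 promoters and 329 of the 331 regions were called in the Ecad lines and missing from the ΔEcad lines. Leaving out 1 line at a time gave 141 to 293 promoters and 348 to 842 regions that separate the genotypes, counts that rise by construction when fewer lines must match. It moved the ΔEcad minus Ecad difference in covered length from 1.06 kb to between -4.21 kb (without Ma_1456, the only reversal) and 3.13 kb. Of 179 alternative values, 1 reversed and 15 moved by more than 1 SD between lines or, for counts, by 1.5 times or more. For covered length the SD between lines is larger than the difference between the groups, so this says little of its size. No member was called in every line under any alternative. The female ΔEcad lists called no member, so of the alternatives only the window of 2000 bp could have changed this. The members called per line stayed lower in ΔEcad than Ecad lines (-2 to -1 on leaving out 1 line). In the main setting the share of all coding promoters called was lower in ΔEcad lines too, with a mean of 33.3% against 43.4%. No paired analysis was possible because each line is a separate tumour line and the replicate numbers, given in order of accession, pair no lines. The depth of the libraries is unknown, so a missing peak cannot be told apart from too few reads.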
